A study of Mus musculus with 6 samples.

Results

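Ly6d, Ly6a, Ly6c1, Ly6c2 and Ly6e are members of the Ly6/uPAR family, and their RNA levels were described in livers with and without a deficiency of Mettl3. The 5 genes were listed by symbol, 5 of the 27179 genes in the count files, and all 5 were among the 14380 genes with enough counts to test. They were chosen by their difference between the genotypes in these same libraries, so that difference is given here as a description, with no test. The RNA came from 6 livers of C57BL/6 mice, 3 from wild-type animals and 3 labelled Mettl3-deficient. Mettl3 is the enzyme that deposits N6-methyladenosine (m6A), a modified base, in messenger RNA. No treatment was labelled for either group, and the animals' age and sex and the way Mettl3 was lost go unstated in the sources used here. Levels are TMM-scaled CPM values, that is counts corrected for the size and composition of each library, and are summarised as mean ± SD of the 3 livers of a group; fold changes put the Mettl3-deficient livers over the wild-type ones.

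Ly6/uPAR proteins are small and disulfide-rich, and most of them are held at the cell surface by a glycosylphosphatidylinositol (GPI) anchor. Many of the mouse genes lie side by side on chromosome 15. Several are used as markers of blood, endothelial or epithelial cells, Ly6a and Ly6e are known interferon-induced genes, and liver RNA holds all of its resident cell types together. In such whole-liver RNA, more cells of a type and more RNA per cell cannot be told apart.

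The libraries held between 31960205 and 36025772 counts. Mettl3 itself was at 13.4, 14.3 and 12.1 CPM in the wild-type livers and at 5.96, 6.60 and 4.94 CPM in the Mettl3-deficient livers. Hepatocyte markers summed to between 162470 and 206270 CPM in wild-type and between 69108 and 104248 CPM in Mettl3-deficient livers, and 2 of the 10 were called lower, Fgb (log2 fold change −1.18, adjusted p = 0.0170 by edgeR's quasi-likelihood test) and Alb (−1.54, adjusted p = 0.0172), while DESeq2 called 7. Both calls were lost in 3 of the 6 fits that left out a library (without Mettl3-deficient replicate 1, wild-type replicate 2 or wild-type replicate 3), in which the count called lower ranged from 0 to 4. Over all 14380 tested genes, 3420 were called at an adjusted p under 0.05, which is 23.8%, with 1906 higher (13.3%) and 1514 lower (10.5%) in the Mettl3-deficient livers. With library size alone in place of TMM factors this split was 4810 higher and 595 lower, and the median over all tested genes moved from a log2 fold change of 0.01 to 0.49. Wild-type replicate 1 stood apart from its group: its log2 levels correlated at 0.943 and 0.939 with the other wild-type livers, against 0.983 between those. It also carried counts of 4 Y-linked genes (6508), as did Mettl3-deficient replicates 1 (4747) and 2 (5031), while the other 3 libraries had 0. Values of each member within the libraries with and without Y-linked counts are therefore given beside its fold change. Each such ratio rests on a single library on 1 side, wild-type replicate 1 with these counts and Mettl3-deficient replicate 3 without. It cannot separate Y-linked counts from other traits of that library.

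The sequences of the members set how well their counts can be told apart. Ly6c1 and Ly6c2 were near-identical, with 384 of 393 aligned coding bases the same (97.71%), and Ly6a shared 81.84% of its aligned coding bases with Ly6c1 and 81.59% with Ly6c2. Ly6d stood far from the other members, at between 47.36% and 51.04% identity. Of all stretches of 50 bases in the longest coding transcript, 292 of 795 in Ly6c1 (36.73%), 255 of 773 in Ly6c2 (32.99%) and 91 of 906 in Ly6a (10.04%) also occurred in a transcript of another gene, against 0 of 695 in Ly6d and 0 of 2232 in Ly6e. Counts of Ly6c1 and Ly6c2, and to a lesser extent Ly6a, are uncertain where reads of such stretches were assigned to one copy or dropped. None of the 5 members overlapped an exon of another annotated gene. The first 60 coding bases of Ly6c1 and Ly6c2 hold 5 of the pair's 9 coding differences, so they differ more than the rest. The same stretch of Ly6a is set beside Ly6g2, because Ly6g2 moved the other way. Only the members, Ly6g2 and Lynx1 were aligned, and of these Ly6g2 was the closest to Ly6a (84.58% identity). Other neighbours such as Ly6a2 were not aligned. Capitals mark the bases at which the members of each pair differ, 5 of 60 in the first pair and 10 of 60 in the second, on GRCm38 coordinates of chromosome 15. The first 52 coding bases of Ly6d, which lie in 1 exon, are shown for contrast in lower case.
Ly6c1 (chr15:75048452-75048511, minus strand): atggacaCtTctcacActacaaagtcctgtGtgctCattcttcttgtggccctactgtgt
Ly6c2 (chr15:75111608-75111667, minus strand): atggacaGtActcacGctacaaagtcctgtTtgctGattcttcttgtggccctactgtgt
Ly6a (chr15:74997545-74997604, minus strand): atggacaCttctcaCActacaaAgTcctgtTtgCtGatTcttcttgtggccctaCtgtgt
Ly6g2 (chr15:75216685-75216744, plus strand): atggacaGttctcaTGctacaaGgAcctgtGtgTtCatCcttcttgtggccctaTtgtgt
Ly6d (chr15:74763509-74763560, minus strand): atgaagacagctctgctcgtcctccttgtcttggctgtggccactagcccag

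Ly6d was nearly absent from wild-type liver and was among the more abundant transcripts of Mettl3-deficient liver. Ly6d (chr15:74762056-74763567, minus strand, Entrez 17068) marks lymphoid progenitors committed to the B-cell lineage and is also a surface antigen of squamous epithelium. The wild-type libraries held 8, 6 and 8 Ly6d counts, and the Mettl3-deficient libraries held 8380, 7785 and 5505. As levels these were 0.284, 0.212 and 0.296 CPM in wild type, 0.264 ± 0.0453, and 208, 172 and 139 CPM in Mettl3-deficient livers, 173 ± 34.3. The groups lay far apart: the lowest Mettl3-deficient library was 472-fold above the highest wild-type library. Among tested genes, between 3.58% and 5.45% were at or below Ly6d in a wild-type library, and between 93.5% and 96.0% in a Mettl3-deficient one. Its log2 fold change was 9.34 ± 0.29 (SE), a 648-fold difference, and 2 of the 14380 tested genes had a larger one. The ratio of means was 669 among libraries with Y-linked counts and 549 among those without, each with a single library on 1 side. Without wild-type replicate 1 the log2 fold change was 9.40.

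Markers of the cell types that carry Ly6d elsewhere are the values to set beside it. For each list, the shares over all tested genes were 13.3% called higher and 10.5% called lower by edgeR. The 12 B-cell markers (Cd79a, Ms4a1, Pax5 and others) summed to between 7.43 and 13.7 CPM in wild-type and between 9.21 and 12.8 CPM in Mettl3-deficient livers, with a median log2 fold change of −0.08. Of the 9 tested none was called in either direction by edgeR, by DESeq2 or at an unadjusted p under 0.05. With library size alone 1 was called higher, and the median was 0.38 beside the shift of 0.49 over all genes. The 18 squamous and urothelial markers summed to between 2.44 and 4.70 CPM in wild-type and between 1.77 and 4.27 CPM in Mettl3-deficient livers. Of those, 10 were at 0 counts in all 6 libraries: Krt6a, Krt13, Krtdap, Krt16, Sprr1b, Sprr3, Trp63, Dsc3, Upk2 and Upk3a. Only 2 had enough counts to test, and 1 of them, the uroplakin gene Upk1b, was called lower (log2 fold change −2.42, adjusted p = 0.0274 by edgeR), a call that was lost in 4 of the 6 fits that left out a library. Among the markers with too few counts to test, Ivl, a precursor of the squamous cell envelope, went from 0 counts in all 3 wild-type livers to 57, 20 and 4 in the Mettl3-deficient ones. Krt4 had 2, 0 and 0 against 15, 8 and 0 counts and Upk1a 0, 5 and 0 against 7, 7 and 16. Krt14 went the other way, with 2, 6 and 0 against 0, 0 and 0 counts. These untested genes were named after their values were seen. Lor, the other tested marker, was not called (0.12, adjusted p = 0.904 by edgeR). Without Mettl3-deficient replicate 3, 1 marker of this list was called higher, and with no filter on low counts 1 was too. The part of B cells and of squamous cells in the Ly6d level was not tested. Bile duct markers, another epithelial list, summed to between 107 and 128 CPM in wild-type and between 95.8 and 259 CPM in Mettl3-deficient livers, and 3 of 9 tested were called higher, among them Muc1 (2.20, adjusted p = 0.0270) and Sox9 (1.33, adjusted p = 0.0320). Muc1 kept its call in 2 and Sox9 in 1 of the 6 fits that left out a library, and the count called higher ranged from 0 to 3, with 0 without Mettl3-deficient replicate 1, Mettl3-deficient replicate 3 or wild-type replicate 3. Spp1 supplied the largest part of the bile duct sums, at 59.3, 88.3 and 98.2 CPM in wild-type livers. In Mettl3-deficient livers it was at 121, 51.3 and 181 CPM, and it was not called (0.52, adjusted p = 0.392 by edgeR). The spread of those sums is thus largely that of Spp1. The part of bile duct cells in the Ly6d level was not tested.

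Ly6a, Ly6c1 and Ly6c2 were low in wild-type liver and differed by less. Ly6a (chr15:74994877-74998031, minus strand, Entrez 110454), known as Sca-1, is the surface antigen used to isolate mouse blood stem cells and is also present on endothelial cells. Its wild-type levels were 11.4, 6.97 and 7.61 CPM, 8.66 ± 2.40, and its Mettl3-deficient levels were 30.4, 29.2 and 9.17 CPM, 22.9 ± 11.9. Mettl3-deficient replicates 1 and 2 were high and replicate 3 lay within the wild-type range, so the groups overlapped. The log2 fold change was 1.40 ± 0.44 (SE), and 1127 tested genes had a larger one. The Mettl3-deficient liver with the low level was also the one without Y-linked counts: the ratio of means was 2.61 among libraries with such counts and 1.26 among those without, and the log2 fold change was 0.86 with a covariate for them and 1.78 without that library.

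Ly6c1 (chr15:75044018-75048920, minus strand, Entrez 17067) is carried by endothelial cells and some lymphocytes. Its counts were 6, 17 and 0 in wild-type and 190, 84 and 115 in Mettl3-deficient libraries, or 0.213, 0.601 and 0 CPM against 4.72, 1.86 and 2.91 CPM. Every Mettl3-deficient library was above every wild-type one, at 3.16 ± 1.44 against 0.271 ± 0.305 CPM. The log2 fold change was 3.51 ± 0.87 (SE), the widest error of the 5, and it moved to 4.83 without wild-type replicate 2, which held 17 of the 23 wild-type counts. The ratio of means was 15.4 among libraries with Y-linked counts and 9.69 among those without.

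Ly6c2 (chr15:75108161-75112066, minus strand, Entrez 100041546) is the antigen of inflammatory monocytes. Its counts were 22, 11 and 20 in wild-type and 130, 178 and 47 in Mettl3-deficient libraries, or 0.781, 0.389 and 0.739 CPM against 3.23, 3.94 and 1.19 CPM. The groups did not overlap, at 0.637 ± 0.215 and 2.79 ± 1.43 CPM, but Mettl3-deficient replicate 3 was much nearer to the wild-type livers than the others, as it was for Ly6a. The log2 fold change was 2.13 ± 0.53 (SE), with a ratio of 4.59 among libraries with Y-linked counts and 2.11 among those without. Since reads can pass between the copies, Ly6c1 and Ly6c2 were also summed into 1 row, which gave a log2 fold change of 2.71.

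Monocyte and endothelial markers are the values to set beside these 3 genes. Over all tested genes, the shares to compare with each list were 13.3% called higher and 10.5% called lower by edgeR. The 14 monocyte markers summed to between 106 and 192 CPM in wild-type and between 201 and 268 CPM in Mettl3-deficient livers, and 6 of 14 were called higher by edgeR (9 by DESeq2) and none lower by either tool or at an unadjusted p under 0.05, with a median log2 fold change of 1.05. Itgam, the integrin chain of myeloid cells, rose by a log2 fold change of 2.02 ± 0.35 (adjusted p = 0.00855 by edgeR), and Cd14, the co-receptor for lipopolysaccharide, by 1.87 ± 0.35 (adjusted p = 0.0109); both calls held in all 6 fits that left out a library. Between 3 and 6 monocyte markers were called higher in those fits, with 3 without wild-type replicate 2 or without wild-type replicate 3. Between 0 and 1 were called lower. The part of monocytes in the Ly6c2 level was not tested. Neutrophil markers, of which 3 of 10 could be tested, summed to between 3.08 and 5.14 CPM in wild-type and between 6.66 and 11.2 CPM in Mettl3-deficient livers, with S100a9 (2.11) and Csf3r (1.15) called higher. Csf3r lost its call in all 6 fits that left out a library and S100a9 in 3 of them (without Mettl3-deficient replicate 1 or 2 or wild-type replicate 2), so that 0 or 1 was called in each. Of the 16 endothelial markers none was called higher by edgeR, by DESeq2 or at an unadjusted p under 0.05, Ptprb (−0.72, adjusted p = 0.0157) and Lyve1 (−1.28, adjusted p = 0.0207) were called lower by edgeR, and the sum was between 343 and 554 CPM in wild-type and between 370 and 395 CPM in Mettl3-deficient livers. The median of these 16 was −0.19. With library size alone it was 0.29, and 2 were called higher and none lower. Ptprb kept its call in 3 and Lyve1 in 4 of the 6 fits that left out a library, and the count called lower ranged from 0 to 3, with 0 without Mettl3-deficient replicate 1 or wild-type replicate 3. T and NK cell markers summed to between 5.65 and 7.47 CPM against between 7.07 and 8.44 CPM, with a median log2 fold change of 0.81 over the 12 tested. Of these 1, Cd4 (−1.89, adjusted p = 0.0255), was called lower, a call held in 1 of the 6 fits that left out a library. None was called higher by edgeR or DESeq2, 2 were higher at an unadjusted p under 0.05, and 2 were called higher with library size alone. The T-cell genes Cd3e (1.35), Cd3d (1.71), Cd8a (2.08) and Cd28 (0.64) were not called but had every Mettl3-deficient library above every wild-type one. They were named after their values were seen, and 23.9% of all tested genes had that pattern, so nothing is read from it. Cd3g, Cd2, Lck, Klrb1c, Klrk1, Gzma and Nkg7 overlapped between the groups.

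**Figure D1:**
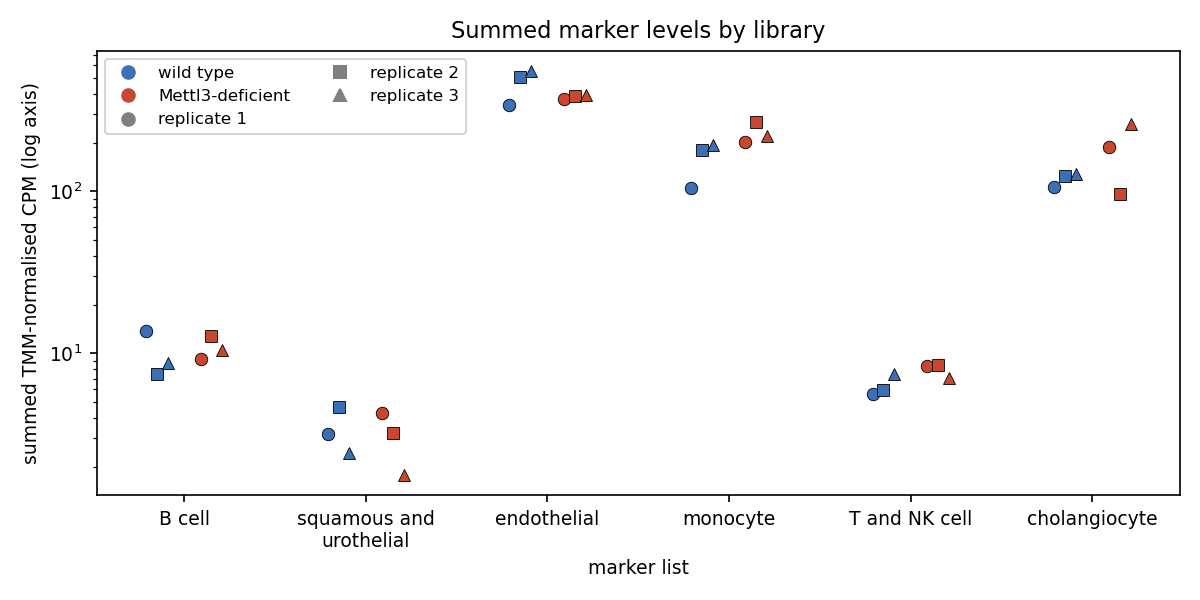
Summed TMM-normalised CPM of 6 marker lists on a log axis, 1 point per library, blue for wild type and red for Mettl3-deficient, with the shape giving the replicate. Monocyte sums lay between 106 and 192 CPM in wild-type and between 201 and 268 CPM in Mettl3-deficient livers, while the B-cell sums of both groups lay between 7.43 and 13.7 CPM.

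Ly6e was abundant in every liver. Ly6e (chr15:74955025-74959904, plus strand, Entrez 17069) is the most broadly expressed member of the family, is induced by interferon and limits entry of coronaviruses into cells. Its levels were 407, 440 and 453 CPM in wild-type and 676, 684 and 638 CPM in Mettl3-deficient livers, at 433 ± 23.7 and 666 ± 24.9 CPM. These were the tightest groups of the 5 genes and they did not overlap, although the difference was the smallest, with a log2 fold change of 0.62 ± 0.20 (SE), or 1.54-fold. The ratio was 1.67 among libraries with Y-linked counts and 1.43 among those without. With library size alone its log2 fold change was 1.10, beside the shift of 0.49 in the median of all tested genes. Across the members, 4 of 5 had every Mettl3-deficient library above every wild-type library, a pattern seen in 23.9% of all tested genes; since the members were listed for this contrast, nothing is read from the count.

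**Figure D2:**
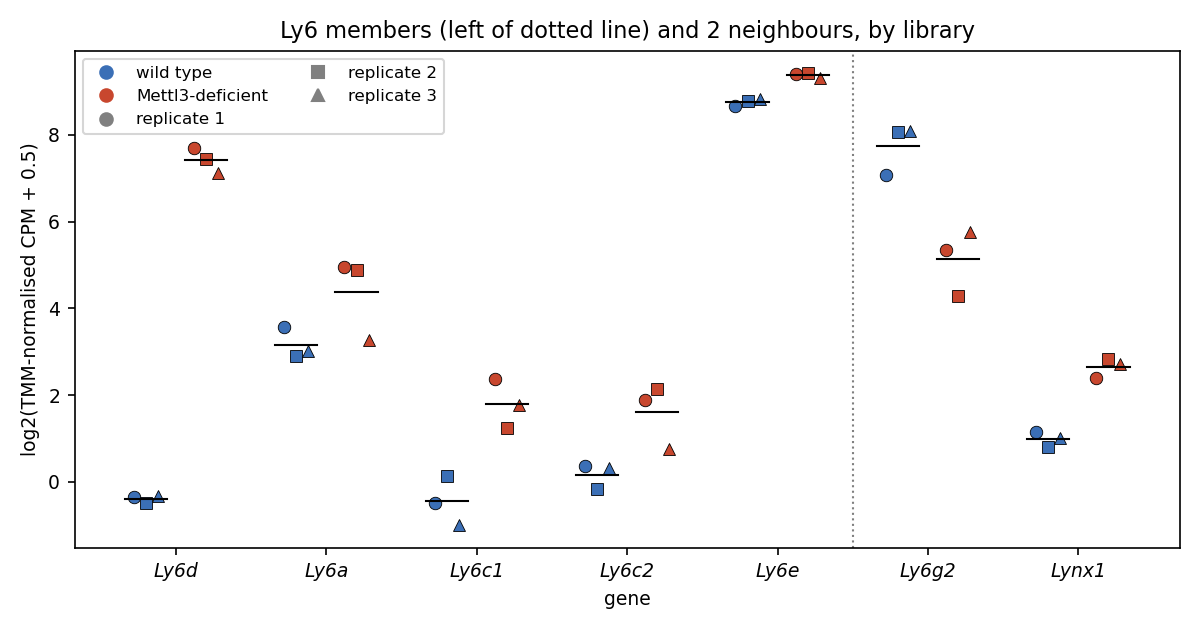
Level of the 5 Ly6 members and of their neighbours Ly6g2 and Lynx1 in each library, as log2(TMM-normalised CPM + 0.5), with the group mean as a bar. Ly6d lay at 0.264 ± 0.0453 CPM in wild-type and 173 ± 34.3 CPM in Mettl3-deficient livers, Ly6a is the member whose groups overlap, and Ly6g2 is higher in wild type.

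Per kilobase of the longest coding transcript, which allows genes to be ranked against each other, the order of the members changed between the groups. In wild-type liver Ly6e was first at 190 ± 10.4 CPM per kb, Ly6a second at 9.07 ± 2.51, Ly6c2 next at 0.774 ± 0.262, and Ly6d (0.355 ± 0.0608) and Ly6c1 (0.322 ± 0.361) last. Ly6c1 overlapped both Ly6d and Ly6c2 and could not be ordered against either, while Ly6c2 lay above Ly6d in each wild-type library. In Mettl3-deficient liver Ly6e was at 292 ± 10.9 CPM per kb and Ly6d at 233 ± 46.1, followed by Ly6a at 24.0 ± 12.5, Ly6c1 at 3.75 ± 1.71 and Ly6c2 at 3.39 ± 1.74. Ly6d thus moved from the bottom of the order to a level next to Ly6e; in each Mettl3-deficient library Ly6e was the higher of the pair, while their ranges over libraries met. Ly6c1 and Ly6c2 overlapped in the Mettl3-deficient group.

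In the wider family, most genes had too few counts in liver to test, and those called moved in both directions. Of 43 other Ly6/uPAR genes listed, 41 were in the files and 7 had enough counts to test, with 2 called higher and 2 called lower, against 13.3% and 10.5% of all tested genes. The median log2 fold change of the 7 was −0.89, against 0.01 for all tested genes. Ly6g2 (chr15:75216351-75222661, plus strand, Entrez 223631) was the second family gene of wild-type liver by CPM, at 135, 267 and 271 CPM, and fell to 40.4, 19.0 and 53.6 CPM. Its groups did not overlap, and it fell by 2.58 ± 0.43 on the log2 scale (5.96-fold lower, adjusted p = 0.00818 by edgeR), a call held in all 6 fits that left out a library. Ly6g2 shared 84.58% of its aligned coding bases with Ly6a and none of its 1449 stretches of 50 bases with another gene. Lynx1 (chr15:74747856-74752979, minus strand, Entrez 23936), which modulates nicotinic acetylcholine receptors, lies next to Ly6d and rose from 1.70, 1.24 and 1.52 CPM to 4.79, 6.66 and 6.08 CPM (log2 fold change 1.97 ± 0.28, adjusted p = 0.00482), also in all 6 such fits.

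Family genes on other chromosomes also moved in both directions. Plaur on chromosome 7, the urokinase receptor that gave the family its name, rose from 0.347 ± 0.305 to 4.08 ± 1.88 CPM (log2 fold change 3.54 ± 0.71, adjusted p = 0.0133), and this call was lost without wild-type replicate 3 (adjusted p = 0.0504). Cd59b on chromosome 2, which like its paralog Cd59a blocks the membrane attack complex of complement, fell by 2.31 ± 0.50 on the log2 scale, from 3.64 ± 1.69 to 0.734 ± 0.376 CPM (adjusted p = 0.0172), and was not called without Mettl3-deficient replicate 1 (0.0594) or 2 (0.0577). Cd59a itself, at 65.8 ± 5.53 and 35.6 ± 15.3 CPM, was not called (log2 fold change −0.89, adjusted p = 0.0560), although it was called by DESeq2 (adjusted p = 0.0201) and without Mettl3-deficient replicate 3 (0.00718). Gpihbp1, the capillary carrier of lipoprotein lipase, was not called at 14.8 ± 1.77 and 11.7 ± 0.467 CPM (log2 fold change −0.33, adjusted p = 0.169), and its sign turned to 0.14 with library size alone. Ly6g5b was not called either (−0.89, adjusted p = 0.404). The other 34 had at most 18 counts in any library, and 14 of them had 0 in all 6: Ly6g, Ly6g5c, Slurp2, Lypd2, Lypd4, Lypd5, Lypd8, Lypd9, Lypd10, Lypd11, Tex101, Pate1, Pate3 and Pate4. Among those with too few counts, Psca (prostate stem cell antigen) had 4, 18 and 12 counts and Lypd6 had 2, 16 and 12 counts in the Mettl3-deficient libraries with 0 in every wild-type one; these were named after their values were seen.

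The make-up of the family's counts differed between the groups. Over 46 family genes the summed level was 650, 800 and 814 CPM in wild-type and 1018, 960 and 919 CPM in Mettl3-deficient livers. Ly6e supplied 57.7 ± 4.19% of it in wild-type and 69.0 ± 2.45% in Mettl3-deficient livers. Ly6g2 supplied 29.2 ± 7.28% and 3.93 ± 1.93%, and Ly6d 0.0355 ± 0.00861% and 17.9 ± 2.63%. The genes in second place thus differed, Ly6g2 in each wild-type and Ly6d in each Mettl3-deficient liver. These shares are not corrected for transcript length, which is 2281 bases for Ly6e and 744 for Ly6d. Per kilobase the 2 genes were closer in Mettl3-deficient liver, at 292 and 233 CPM per kb. Family genes with at least 1 count numbered 16, 17 and 14 in the wild-type and 23, 26 and 22 in the Mettl3-deficient libraries. These numbers are not scaled. TMM factors were 0.881, 0.825 and 0.840 in wild-type and 1.17, 1.25 and 1.12 in Mettl3-deficient libraries, so equal levels gave more counts in the latter. The same number over all genes was not taken, and nothing is read from the difference.

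**Figure D3:**
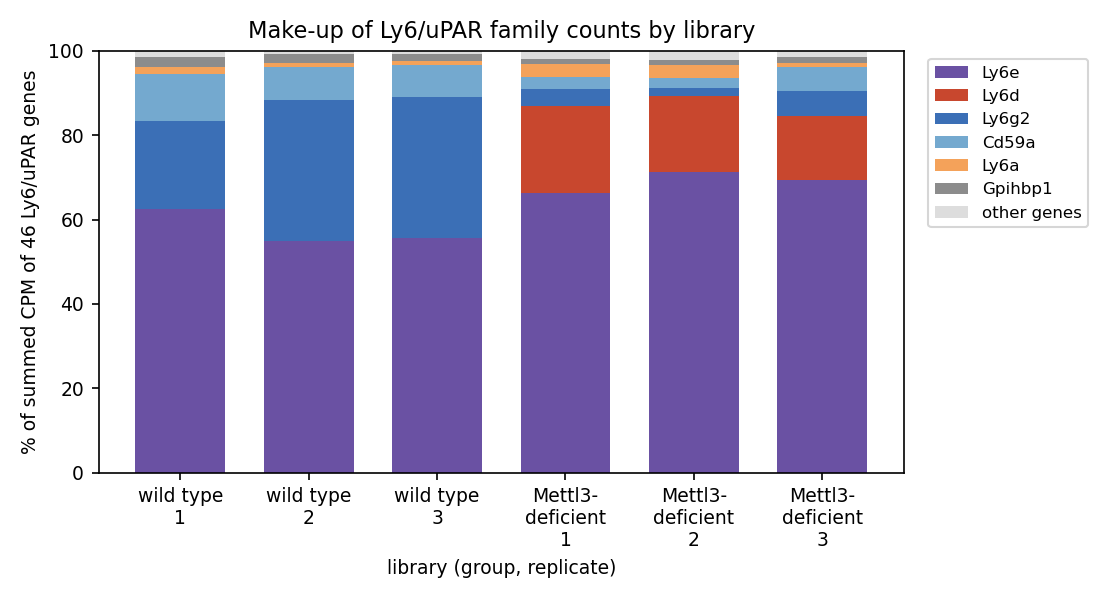
Share of the summed CPM of 46 Ly6/uPAR genes supplied by each gene in each library, as stacked bars of percent, not corrected for transcript length. Ly6g2 fills between 20.8% and 33.4% of the wild-type bars and Ly6d between 15.2% and 20.4% of the Mettl3-deficient bars, with Ly6e the largest part of all 6.

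Around the members on chromosome 15, calls were about as frequent as over all tested genes, and both called genes were family genes described above. Within 500 kb of a member lay 26 other genes in the files, of which 8 could be tested, 1 was called higher (Lynx1) and 1 lower (Ly6g2), against 13.3% and 10.5% of all tested genes. The median log2 fold change of the 8 was 0.07. Ly6d and Lynx1, higher in Mettl3-deficient livers, lie at one end of the cluster, and Ly6g2, lower, lies beyond Ly6c2 at the other. The remaining 6 were not called: Them6 (0.60, adjusted p = 0.107), Jrk, Arc, Ly6a2, Gpihbp1 and 9030619P08Rik. The last of these varied most, at 5.58, 82.9 and 80.7 CPM in wild-type and 37.2, 10.1 and 16.2 CPM in Mettl3-deficient livers, with wild-type replicate 1 the lowest of all 6. The other 18 neighbours had at most 18 counts in a library.

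**Figure D4:**
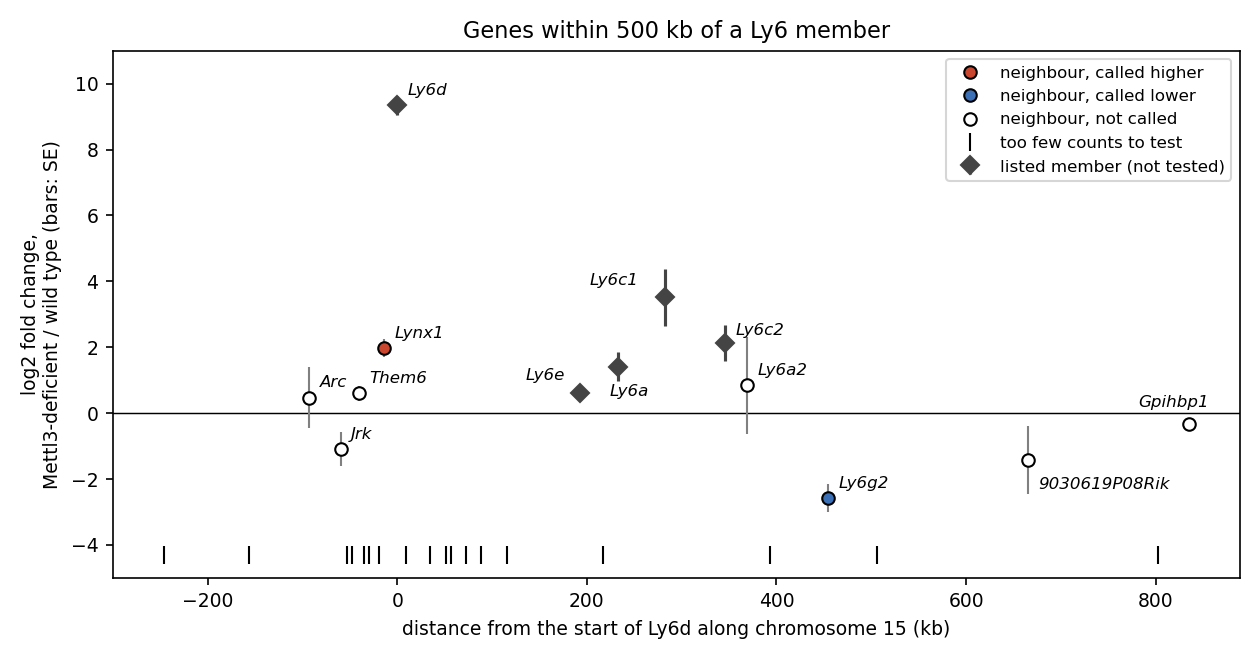
Log2 fold change (Mettl3-deficient / wild type, bars of 1 SE) of the genes within 500 kb of a Ly6 member against distance from the start of Ly6d in kb. Filled circles are neighbours called by edgeR, open circles those not called, diamonds the 5 members, and ticks at the base the 18 neighbours with too few counts.

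The enzymes that build and trim the GPI anchor were all expressed, and calls among them were about as frequent as over all tested genes. Nothing is read from their number. All 32 listed genes were tested, 3 were called higher and 4 lower, against 13.3% and 10.5% of all tested genes, with a median log2 fold change of 0.08. Pgap6, a phospholipase that acts on GPI-anchored proteins, rose from 29.5 ± 1.84 to 63.6 ± 7.52 CPM (1.11 ± 0.15, adjusted p = 0.00409), and Pgap2, needed for fatty acid remodelling of the anchor in the Golgi, from 15.4 ± 3.24 to 44.4 ± 12.7 CPM (1.53 ± 0.25, adjusted p = 0.00742). Pgap1, which removes an acyl chain from the anchor in the endoplasmic reticulum, fell from 16.0 ± 4.41 to 6.996 ± 0.175 CPM (−1.19 ± 0.22, adjusted p = 0.0111). These 3 calls held in all 6 fits that left out a library. Dpm1, which makes the mannose donor, fell by 0.89 on the log2 scale (adjusted p = 0.0136), a call lost without wild-type replicate 2. Gpld1, the GPI-specific phospholipase D that liver secretes, fell from 276, 513 and 533 to 192, 149 and 215 CPM (−1.25 ± 0.30, adjusted p = 0.0235). The mannosyltransferase Pigv fell by 0.79 (adjusted p = 0.0221), and both Gpld1 and Pigv lost their calls without any 1 of 4 libraries (Mettl3-deficient replicates 1 and 2, wild-type replicates 2 and 3). Pigk, the catalytic subunit of the transamidase that attaches the anchor, rose by 0.51 (adjusted p = 0.0346), a call lost in all 6 such fits. With library size alone 12 of the 32 were called higher and 1 lower.

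Interferon response genes, the group to set beside Ly6a and Ly6e, rose in part. Of 30 listed and tested, 7 were called higher and none lower by edgeR, against 13.3% and 10.5% of all tested genes, with a median log2 fold change of 0.70 against 0.01. At an unadjusted p under 0.05, 12 were higher and 1 lower, and DESeq2 called 11 higher and 1 lower. Zbp1, a sensor of nucleic acids, rose from 5.95 ± 0.649 to 37.0 ± 21.8 CPM (2.64 ± 0.41, adjusted p = 0.00705), Usp18, which removes Isg15 from proteins, from 12.2 ± 2.68 to 32.4 ± 8.17 CPM (1.41 ± 0.25, adjusted p = 0.00934), and Ifit2, a translation inhibitor, from 4.94 ± 0.329 to 16.7 ± 6.93 CPM (1.75 ± 0.33, adjusted p = 0.0108). Those 3 held in all 6 fits that left out a library. Oasl2, of the oligoadenylate synthetase family, rose by 1.20 ± 0.26 (adjusted p = 0.0172) but lost its call without any 1 of the same 4 libraries. Without Mettl3-deficient replicate 1 or 2, or wild-type replicate 2 or 3, 3 of the 30 were called higher, and without Mettl3-deficient replicate 3 or wild-type replicate 1, 12 and 11 were. The summed level of the list overlapped between the groups, at between 1084 and 1472 CPM in wild-type and between 1075 and 1684 CPM in Mettl3-deficient livers. That sum leans on Iigp1, which had the highest wild-type mean of the list. Iigp1 went from 394 ± 89.4 to 216 ± 76.1 CPM and was not called (−0.87, adjusted p = 0.0823 by edgeR). It is the 1 gene lower at an unadjusted p under 0.05, and it was named after its values were seen. The part of interferon in the Ly6a and Ly6e levels was not tested. With the covariate for Y-linked counts the median of the list was 0.29 and 8 were called higher.

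METTL3 methylates adenosine in short contexts, of which GGACT in the transcript is a preferred one and GGACA a related one. The libraries measured RNA level and not methylation, so a match is a description of the transcript and not a methylated site. Ly6d had no GGACT in its 744-base transcript, as have 11.93% of 21767 protein-coding genes, and had 3 GGACA matches, or 4.03 per kb against a median of 1.28, with 98.47% of genes at or below it. Ly6c1 and Ly6c2 had 3 GGACT matches each (3.56 and 3.65 per kb against a median of 1.012), with 98.85% and 98.98% of genes at or below them. Ly6e had 4 (1.75 per kb) and Ly6a 1. GGACA occurred 1 time each in Ly6a, Ly6c1, Ly6c2 and Ly6e, with between 13.35% and 46.93% of genes at or below them. Ly6g2, which fell, had 3 GGACT and 5 GGACA matches, with 88.05% and 96.65% of genes at or below it. Lynx1, which rose, had 2 and 4, with 21.45% and 35.41% at or below it. GAACT, another such context, was absent from Ly6d, as from 12.02% of genes, and from Ly6c2, and occurred 1 time each in Ly6a, Ly6c1 and Ly6e. Only the sense strand was searched, and none of these motifs can overlap another. The 3 GGACA windows of Ly6d and the GGACT window that Ly6c1 and Ly6c2 share within 1 exon are shown, with the motif in capitals, because they are the densest matches of the members.
Ly6d, coding (chr15:74762424-74762444, minus strand): ctgcacctGGACAtgccctgc
Ly6d, 3′ UTR (chr15:74762166-74762186, minus strand): ctcccccaGGACAggaagatg
Ly6d, 3′ UTR (chr15:74762125-74762145, minus strand): aagatgggGGACAgacatgct
Ly6c1, coding (chr15:75045511-75045531, minus strand): cagggagaGGACTtcctgttg
Ly6c2, coding (chr15:75108652-75108672, minus strand): cagggagaGGACTtcctgttg

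RefSeq promoter sequence (GRCm38.p6) was matched for 2 of the 5 members, Ly6c1 and Ly6c2. The 250 bases before RefSeq's start in that table were compared, which lie partly inside the gene spans given above. The pair had 164 of 284 aligned positions the same (57.75%) and a longest shared run of 20 bases. The 2 windows are offset against each other, and the 284 positions include gaps, each counted as a difference. So 57.75% understates how alike the overlapping parts are, and it cannot be set against the 97.71% of the coding bases. TATAAA occurred in the Ly6c1 window and not in that of Ly6c2, and so did CCAAT, on either strand; 13% and 34.5% of 27018 promoters of that length held them. Neither window held TTCNNNGAA, the core of the interferon-stimulated response element (TTTC, any 2 bases, TTTC) or TGANTCA, which 7.18%, 3.04% and 6.87% of the promoters held.

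The genes whose pattern over the 6 libraries was most like each member were taken from 12055 genes with a mean of at least 1 CPM, by the root mean square difference of centred log2(CPM + 0.5). That distance includes the genotype difference by which the members were chosen, so it describes them and no more. Nearest to Ly6d were the glutathione transferases Gsta1 (1.16), from 0.558 ± 0.455 to 54.9 ± 28.6 CPM, and Gstm3 (1.59), from 58.0 ± 18.1 to 1671 ± 920 CPM, then the transporter Abcc4 (1.71), the acyl-CoA thioesterase Acot2 (1.71) and Igdcc4 (1.72). Gsta1 and Acot2 have near-identical copies, and their counts are uncertain. Nearest to Ly6a were the keratin Krt8 (0.149), Lrrc59 (0.156) and Golt1b (0.233). For Ly6c1 they were Arhgef39 (0.257), the inhibin subunit Inhbb (0.296) and Sgo2a (0.297), a protector of centromeric cohesion. For Ly6c2 they were Acot9 (0.144), Tes (0.153) and Fkbp11 (0.175). For Ly6e they were Cbll1 (0.0456), a subunit of the m6A writer complex, Zfp777 (0.0463) and Gpr89 (0.0486). Within a distance of 0.5 lay 7144 of the 12055 genes for Ly6e, 831 for Ly6c2, 439 for Ly6a, 59 for Ly6c1 and 0 for Ly6d. Most genes were thus near Ly6e, so its nearest genes are not particular to it, and no gene was that near to Ly6d.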

How the data were processed

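Frozen livers were extracted with TRIzol, ribosomal RNA was depleted with Ribo-Zero Gold, and NEBNext Ultra II Directional libraries were sequenced, per the labels' protocols. The submitters' processing notes name HISAT2, featureCounts and mm10; versions, settings and strand use go unstated in the sources used here. Each library was deposited as unnormalized counts by Entrez identifier, and 25275 of 27179 identifiers matched a RefSeq GRCm38.p6 symbol. Groups follow the genotype labels; nothing says more of the animals, so p-values reflect only how these 6 samples vary. Counts were fitted with edgeR 4.0.16 in R 4.3.3 (robust quasi-likelihood F test, two-sided, TMM factors, filterByExpr with a minimum count of 10 and total of 15, Benjamini-Hochberg over all tested genes, threshold 0.05), and every adjusted p is from this fit unless DESeq2 is named. Standard errors came from the fold change and its F statistic. Library pairs differed by more than sampling noise. Lengths and transcripts came from GENCODE on GRCm38, not RefSeq exons as first planned; Ly6g2 was matched by position. Alternatives were RLE factors, library size alone, DESeq2 1.42.0, no filter, a Y-linked covariate, a replicate block, Ly6c1 and Ly6c2 summed, and each library left out.

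The members and lists were chosen with earlier results of these data known. Named genes were all members, every called family, neighbour and GPI gene, the 4 smallest p of called interferon genes, the 2 smallest p of called genes of each marker list and markers at 0 throughout, and the 3 genes most like each member (5 for Ly6d). Family and neighbouring genes that were not called or not tested were also named, as were some markers and the interferon gene Iigp1.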

Additional observations from a re-analysis of the deposited data

How the results depend on the processing

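All 5 members kept their direction under every alternative run. Leaving out each library in turn gave log2 fold changes of 9.19 to 9.47 for Ly6d, 1.15 to 1.78 for Ly6a, 2.94 to 4.83 for Ly6c1, 1.79 to 2.49 for Ly6c2 and 0.57 to 0.65 for Ly6e. The same fits called 840 to 1932 genes higher and 518 to 1582 lower, 1 to 2 family genes higher and 1 to 3 lower, 1 to 1 neighbours higher and 1 to 2 lower, 2 to 2 GPI genes higher and 1 to 4 lower, and 3 to 12 interferon genes higher and 0 to 0 lower. Library size alone gave log2 fold changes of 9.81 for Ly6d, 1.10 for Ly6e and 0.14 for Gpihbp1 (which changed sign), 4810 genes higher and 595 lower, 12 GPI genes higher and 1 lower, 12 interferon genes higher and 2 neighbours higher; the median of all tested genes moved to 0.49. DESeq2 called 11 interferon genes higher and 1 lower. With no filter 2 neighbours were called higher. Ly6c1 summed with Ly6c2 gave 2.71. No pairing of the samples by replicate number was seen. Same-numbered libraries had correlations of 0.084, −0.017 and 0.034 between their deviations from the group means. Not every sample correlated best with its own number. With so few libraries these values cannot exclude a pairing, and the labels state none. With a replicate block 1528 genes were called higher and 1155 lower, 1 interferon gene was called lower, and the log2 fold changes were 9.33 for Ly6d, 1.26 for Ly6a, 3.77 for Ly6c1, 2.01 for Ly6c2 and 0.62 for Ly6e. The causes of these differences were not tested. At these depths genes with 18 or fewer counts, which include most of the family, could not be compared.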
